A study of Mus musculus with 24 samples.

Results

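The unfolded protein response and the folding machinery of the endoplasmic reticulum were followed through 32 genes, each taken where a probe set of the array named that gene and no other. Of the 32, 30 were measured, among 19505 named genes in all. Pdia4 and Manf had no probe set that met the rule and were not analysed here. The 30 were 4 sensors and transcription factors (Ern1, Eif2ak3, Atf6, Xbp1), 13 chaperones and folding enzymes, 7 genes of degradation and the translocon, and 6 genes of the PERK and ATF4 arm (Atf4, Ddit3, Trib3, Chac1, Asns, Ppp1r15a). The samples were 24 single-colour arrays of mice of the outbred strain ICR-CD1, in 6 groups of 4. Control and SL groups, the latter descended from obese grandfathers, were each sampled at embryonic day 7.5 (ED7.5), embryonic day 14.5 (ED14.5) and postnatal day 7.5 (PD7.5). The embryonic samples were labelled whole embryo and the postnatal ones liver. The sources used here do not say what SL abbreviates, how the grandfathers became obese, or whether replicates differ in litter or grandfather. The p-values therefore measure only the spread between these samples. The values are log2 expression summaries, and every difference below is a difference of log2 values of the same probe set.

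Proteins bound for secretion or membranes fold inside the endoplasmic reticulum, where the load is watched by the sensors IRE1 (gene Ern1), PERK (gene Eif2ak3) and ATF6. Active IRE1 splices the messenger RNA of Xbp1, and the spliced form and cleaved ATF6 switch on chaperones and the genes that extract misfolded proteins for degradation. PERK slows translation and lets ATF4 be made, which switches on genes of amino acid supply, redox balance and, when stress lasts, cell death. Liver and decidua, the maternal lining that surrounds the implanted embryo, are both known as strongly secretory tissues. An array of this kind measures transcript levels, not splicing, cleavage or translation.

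The promoters of both arms carry different short elements, shown here because the comparison of the arms is the question of the list. Windows from 250 bases before to 50 bases after the gene start were taken from RefSeq on build GRCm38.p6, and 28 of the 32 genes had one. Atf6, Derl1, Hyou1 and Manf are not among them. The ER stress response element, searched on both strands as CCAAT and CCACG held apart by 9 bases of any kind, was found in 9 of the 28 windows, namely in 7 of 13 chaperone windows (Hspa5, Hsp90b1, Calr, Canx, Pdia6, Dnajc3, Creld2) and in 2 of 6 degradation windows (Syvn1, Derl3). It was in 0 of 6 PERK and ATF4 windows and in 39 of all 32851 windows, which is 0.119%. The related element of ATTGG and CCACG with 1 base between them, searched on both strands, was in Herpud1 and Dnajb11, against 0.0365% of all windows. TGATGNAA, the composite site at which ATF4 is known to pair with C/EBP proteins, was in 3 of 6 PERK and ATF4 windows (Asns, Chac1, Trib3) and in Herpud1, against 3.97% of all windows. Every match of the stricter TGATGCAA, found in Chac1 and Herpud1 and in 0.895% of all windows, is also a match of TGATGNAA. TGACGTCA was found in Ppp1r15a alone, against 1.79% of all windows, and TGACGTGG was in none of the 28 windows, against 0.676%. A match describes letters in a window and does not show that a factor binds there.

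The windows below are those of members to which the results return, written 5′ to 3′ on the strand of the gene, with the matching bases in capitals. For Creld2, the Hsp90b1 site shown, Chac1 and the second Herpud1 site the match lies on the opposite strand, so the capitals hold the reverse complement of the letters searched. The Hspa5 match spans bases -65 to -47 from the gene start (chr2:34772005-34772063 shown), the Hsp90b1 match shown -107 to -89 (chr10:86705513-86705571) and that of Creld2 -126 to -108 (chr15:88819500-88819558). The Hsp90b1 window holds a further match of the same element at -212 to -194, which is not shown. The Herpud1 matches lie at -52 to -42 (chr8:94386357-94386407) and -112 to -105 (chr8:94386297-94386344). The match of Asns lies at -23 to -16 (chr6:7693210-7693252), that of Chac1 at -193 to -186 (chr2:119351029-119351076) and that of Ppp1r15a at -12 to -5 (chr7:45526269-45526300). Hsp90b1, Asns and Ppp1r15a lie on the minus strand of the build and the others on the plus strand.
Hspa5: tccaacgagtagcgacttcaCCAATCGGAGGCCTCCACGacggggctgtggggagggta
Hsp90b1: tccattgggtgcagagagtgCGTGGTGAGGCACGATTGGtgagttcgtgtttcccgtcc
Creld2: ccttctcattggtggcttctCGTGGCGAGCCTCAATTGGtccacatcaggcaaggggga
Herpud1, first site: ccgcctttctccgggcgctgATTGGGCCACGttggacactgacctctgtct
Herpud1, second site: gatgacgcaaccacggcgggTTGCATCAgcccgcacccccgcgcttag
Chac1: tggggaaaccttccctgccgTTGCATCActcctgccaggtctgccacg
Asns: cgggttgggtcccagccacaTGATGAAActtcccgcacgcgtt
Ppp1r15a: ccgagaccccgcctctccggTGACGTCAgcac

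Each array carries 5222 control probes placed in introns, and their 75th percentile served as its background. Between 48.3% and 64.1% of the named genes lay above it. That background was above 6.4 on 1 ED7.5 control and 1 ED14.5 control array and lower on all others. Of the 30 members, 27 were above background on all 24 arrays, the exceptions being Derl3, Trib3 and Chac1. Markers of the tissues were read against the labels. On ED7.5 control arrays 13 of 14 decidua markers were above background on every array, and their percentile among named genes averaged 92.1. For epiblast markers it was 0 of 10. On ED14.5 control arrays all 12 hepatocyte and all 10 erythroid markers were above background on every array, at mean percentiles of 99.1 and 98.6, while 0 of 8 neuron and 1 of 8 skeletal muscle markers were. In the PD7.5 liver the hepatocyte markers stood at 99.7 and the erythroid markers at 82.7. The label whole embryo therefore goes with decidua markers at ED7.5 and with liver and erythroid markers at ED14.5, and the ages differ in tissue as well as in time. In bulk tissue, fewer cells of a type and less transcript per cell cannot be told apart.

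In the control groups the listed members of the arms differed in how they moved between ages. From ED7.5 to ED14.5 21 of the 23 genes of the XBP1 and ATF6 arm fell and 0 rose: Xbp1, Atf6 and Ern1, 12 of 13 chaperones and 6 of 7 degradation and translocon genes. Of the 6 PERK and ATF4 genes 4 rose and 1 fell, and Eif2ak3, the gene of PERK itself, fell. A wider list of 26 ATF4 targets, given further below, was split, with 12 higher and 10 lower. Over all members 27 of 30 passed the limma test at an adjusted p under 0.05, 23 lower and 4 higher, while 51.9% of all genes passed, 26.3% lower and 25.6% higher. The median difference was -0.81 for the chaperones, -0.82 for degradation and translocon, 0.54 for the PERK and ATF4 genes and 0.027 for all genes.

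Dnajb9, a co-chaperone that brings BiP to IRE1 and is a known target of spliced Xbp1, had the largest drop of the chaperones. Its log2 values were 10.98, 11.06, 10.72 and 10.53 on the ED7.5 control arrays, 8.91, 8.67, 8.42 and 8.48 on the ED14.5 control arrays and 10.16, 10.09, 9.78 and 10.06 on the liver control arrays. All ED7.5 arrays were above all liver arrays and these above all ED14.5 arrays. The drop to ED14.5 was 4.60-fold (log2 difference -2.20, SE 0.155, adjusted p 8.04e-07). Derl3, a channel component of the degradation pathway found mainly in secretory cells, ran from 7.66 to 8.57 at ED7.5 and was below background on all ED14.5 control arrays. It was at least 3.99-fold lower there (measured log2 difference -2.57, adjusted p 1.47e-06).

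Xbp1 itself read 11.58, 11.33, 11.38 and 11.74 on the ED7.5 control arrays and 10.36, 10.31, 10.22 and 10.24 on those of ED14.5. The ranges lay far apart, and Xbp1 fell 2.34-fold (-1.22, SE 0.117, adjusted p 8.34e-06). Ern1, the gene of the sensor that splices it, fell 3.29-fold (-1.72, SE 0.192, adjusted p 2.77e-05), the most of the sensors, against 1.59-fold for Eif2ak3 (-0.67, SE 0.0977, adjusted p 0.000207) and 1.34-fold for Atf6 (-0.42, adjusted p 0.0040). With each array centred on its median, which shifted the median of all genes by 0.177, the members' median became -0.61 and Atf6 no longer passed (adjusted p 0.0605). Among the chaperones Creld2, a disulfide isomerase-like factor that is secreted under stress, fell 2.43-fold (-1.28, SE 0.119, adjusted p 6.88e-06). Hspa5, the gene of the main chaperone BiP, fell 1.45-fold (-0.54, SE 0.0946, adjusted p 0.00074). Canx, the membrane lectin chaperone calnexin, was the 1 chaperone that did not pass (-0.20, adjusted p 0.161).

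The PERK and ATF4 genes that rose were led by Ppp1r15a and Asns. Ppp1r15a encodes GADD34, which restores translation by directing the dephosphorylation of eIF2α, and its control values were 7.42, 7.05, 7.26 and 7.52 at ED7.5 against 8.76, 9.20, 9.33 and 9.03 at ED14.5. Every ED14.5 array was above every ED7.5 array, a 3.40-fold rise (1.76, SE 0.153, adjusted p 3.82e-06). Asns, asparagine synthetase, read 10.61, 10.33, 10.40 and 10.43 at ED7.5 and 12.15, 12.23, 12.11 and 12.12 at ED14.5, again without overlap. It rose 3.27-fold (1.71, SE 0.101, adjusted p 2.09e-07). Ddit3, the gene of the death-linked factor CHOP, rose 1.63-fold (0.70, adjusted p 0.00129) and Atf4 1.30-fold (0.37, adjusted p 0.0129), which in the SL arrays did not pass (0.24, adjusted p 0.0854). Chac1, which degrades glutathione, went the other way (-1.13, SE 0.366, adjusted p 0.0256), was above background on 3 ED7.5 and 1 ED14.5 control arrays, and lost its call without ED7.5 control replicate 1 or 4 or ED14.5 control replicate 2 (adjusted p 0.0618, 0.0703 and 0.0570). Trib3, a pseudokinase that restrains ATF4, was near background at both ages (0.25, adjusted p 0.348).

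**Figure D1:**
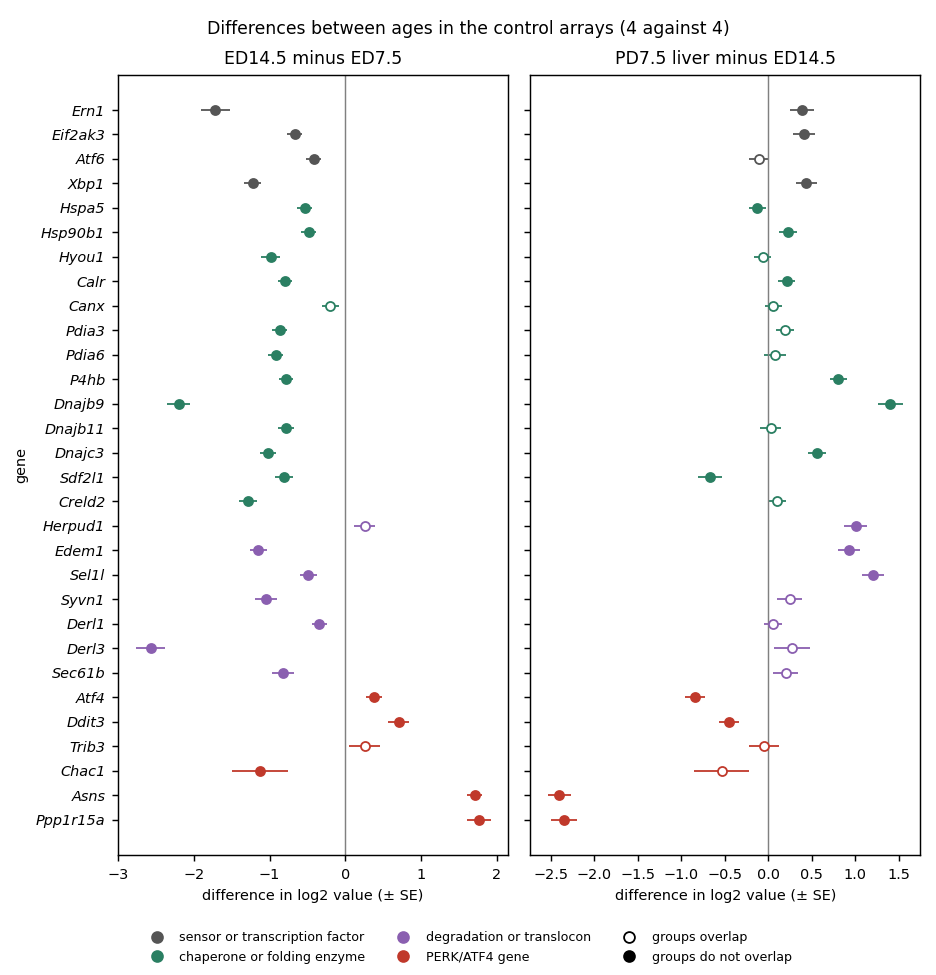
Differences in log2 value between ages in the control arrays for the 30 members (rows, coloured by role), ED14.5 minus ED7.5 on the left and PD7.5 liver minus ED14.5 on the right. Points are limma estimates from 4 against 4 arrays, bars are standard errors, and filled points mark groups that do not overlap; the axes of the panels differ. On the left 23 members lie lower and 4 higher past the threshold, and Asns and Ppp1r15a swing from the highest points on the left to the lowest on the right.

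From ED14.5 to the postnatal liver 4 of 6 PERK and ATF4 genes fell and 0 rose, while of the 13 chaperones 3 rose, 1 fell and 9 did not pass. Of the 30 members 14 passed, 9 higher and 5 lower, close to the 45.2% of all genes that passed, 20.5% higher and 24.6% lower. The median was 0.10 for the chaperones (0.032 with centred arrays), 0.27 for degradation and translocon and -0.69 for the PERK and ATF4 genes, beside -0.025 for all genes. This comparison shares the ED14.5 control arrays with the one before, so an array that was low there would push both in opposite directions. In the SL arrays, which share no array with the controls, 10 members were higher and 5 lower, against 45.8% of all genes called, and 13 of the 14 were called in the same direction. Ern1 did not pass there (0.29, adjusted p 0.153), while Hsp90b1 (0.49, adjusted p 0.00411) and Derl3 (0.57, adjusted p 0.0259) did. From ED7.5 to ED14.5 the SL arrays gave 4 higher and 23 lower, against 53.6% of all genes called, with 26 of the 27 called in the same direction. The fourth higher gene was there Herpud1 (0.33, adjusted p 0.0151) in place of Atf4.

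The 9 higher members were 3 of 7 degradation and translocon genes, 3 of 13 chaperones and 3 of 4 sensors and transcription factors. Sel1l, the scaffold of the HRD1 ubiquitin ligase, read 9.46, 9.50, 9.30 and 9.60 on the ED14.5 control arrays and 10.73, 10.60, 10.45 and 10.86 in the liver. The groups were well apart, with a 2.30-fold rise (1.20, SE 0.127, adjusted p 3.21e-05). Herpud1, which recruits the ligase, rose 2.00-fold (1.00, SE 0.135, adjusted p 0.000169) and Edem1, which marks glycoproteins for extraction, 1.90-fold (0.92, adjusted p 0.000211). Dnajb9 rose 2.64-fold (1.40, SE 0.144, adjusted p 2.60e-05) and P4hb, a protein disulfide isomerase and subunit of the collagen hydroxylase, 1.75-fold (0.80, adjusted p 8.13e-05). Dnajc3, a co-chaperone also known to restrain PERK, rose 1.47-fold (0.56, adjusted p 0.00151) and Xbp1 1.35-fold (0.44, adjusted p 0.0128). Ern1 (0.39, adjusted p 0.0400) and Eif2ak3 (0.41, adjusted p 0.0234) also passed. The call of Ern1 was lost without any 1 of the arrays except ED14.5 control replicate 1 (adjusted p up to 0.114). That of Eif2ak3 was lost without any 1 except ED14.5 control replicate 1 and liver control replicate 2 (up to 0.0657).

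The lower members were Asns, Ppp1r15a, Atf4, Ddit3 and the chaperone partner Sdf2l1. Asns read 9.55, 10.09, 9.69 and 9.69 in the control liver, all far below the ED14.5 arrays, and fell 5.28-fold (-2.40, SE 0.133, adjusted p 4.54e-07). Ppp1r15a read 6.75, 6.94, 6.69 and 6.54 there, where background ran from 5.65 to 6.07, and fell 5.10-fold (-2.35, adjusted p 1.14e-06). Atf4 fell 1.79-fold (-0.84, adjusted p 0.00016), Sdf2l1 1.60-fold (-0.68, adjusted p 0.00257) and Ddit3 1.37-fold (-0.45, adjusted p 0.00909). Hspa5 (-0.13, adjusted p 0.343), Atf6 (-0.11, adjusted p 0.479) and Trib3 (-0.046, adjusted p 0.858) did not pass. Chac1 did not either (-0.53, adjusted p 0.208), but passed without ED14.5 control replicate 3, its lowest array there (-0.87, adjusted p 0.00577). By group mean over the control groups, 12 of 13 chaperones were highest at ED7.5 and 10 of 13 lowest at ED14.5. Only 3 of the 13 passed as higher in the liver than at ED14.5. Of the PERK and ATF4 genes 5 of 6 were highest at ED14.5, among them Trib3, which passed at neither step. The share of all genes with these orders was not taken. Erythroid markers moved with Asns and Ppp1r15a: all 10 rose from ED7.5 to ED14.5 (median 6.14) and all 10 fell to the liver (median -2.88). Decidua markers, 13 of 14 lower at ED14.5 (median -5.83), moved with the chaperones between the embryonic ages. The part of these cell types in the members' differences was not tested.

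The remaining folding genes are given as group means over 4 arrays (SD over all members and groups from 0.0128 for P4hb to 0.754 for Chac1). Calr, the soluble lectin chaperone calreticulin, averaged 13.35 in control and 13.34 in SL arrays at ED7.5, 12.55 and 12.43 at ED14.5, and 12.76 and 12.67 in the liver. Canx averaged 11.53 and 11.47, 11.33 and 11.36, and 11.39 and 11.52 in the same order. It passed at neither step between ages, while calreticulin, which binds the same kind of glycans, fell 1.74-fold from ED7.5 to ED14.5 (-0.80, adjusted p 4.15e-05). The disulfide isomerases Pdia3 (12.02 and 11.90, 11.15 and 11.03, 11.34 and 11.31) and Pdia6 (12.61 and 12.56, 11.68 and 11.65, 11.76 and 11.71) fell 1.82-fold and 1.89-fold between the embryonic ages. P4hb (11.92 and 11.84, 11.14 and 11.20, 11.94 and 11.91) fell 1.72-fold and came back in the liver to 11.94 in controls, next to 11.92 at ED7.5. Among these enzymes only P4hb passed between ED14.5 and the liver.

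The BiP partners fell as well from ED7.5 to ED14.5. Hyou1 averaged 11.52 and 11.71 at ED7.5, 10.53 and 10.22 at ED14.5, and 10.47 and 10.26 in the liver (control and SL in each case). Dnajb11, a co-chaperone that hands substrates to BiP, averaged 9.75 and 9.78 at ED7.5 and 8.97 and 9.05 at ED14.5. Liver and ED14.5 controls did not differ beyond their spread (0.028, adjusted p 0.880). Dnajc3 (10.43 and 10.54, 9.41 and 9.23, 9.96 and 9.97) lay in the liver between its ED7.5 and ED14.5 levels. Sdf2l1, which works with Dnajb11, fell at both steps (9.68 and 9.84, 8.87 and 8.67, 8.19 and 7.82). Hsp90b1 averaged 12.40 and 12.42, 11.91 and 11.72, and 12.13 and 12.21, with a 1.40-fold drop between the embryonic ages (adjusted p 0.00236).

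In the degradation group Edem1 averaged 10.66 and 10.73 at ED7.5, 9.51 and 9.27 at ED14.5, and 10.44 and 10.27 in the liver, in control and SL arrays. Sel1l (9.95 and 9.98, 9.46 and 9.40, 10.66 and 10.60) and Herpud1 (10.13 and 10.28, 10.38 and 10.61, 11.38 and 11.21) were the members of this group whose mean was higher in the liver than at both embryonic ages. Their partner in the ligase complex, Syvn1, did not share this (9.89 and 10.26, 8.84 and 8.64, 9.08 and 8.94). Derl1 (10.60 and 10.63, 10.26 and 10.12, 10.31 and 10.29) fell 1.27-fold from ED7.5 to ED14.5 (adjusted p 0.0171). Sec61b, a subunit of the translocon through which new proteins enter, fell 1.76-fold (9.59 and 9.60, 8.77 and 8.91, 8.97 and 8.86). Derl3 stayed low after ED7.5, above background on 1 control and 2 SL arrays of the liver.

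**Figure D2:**
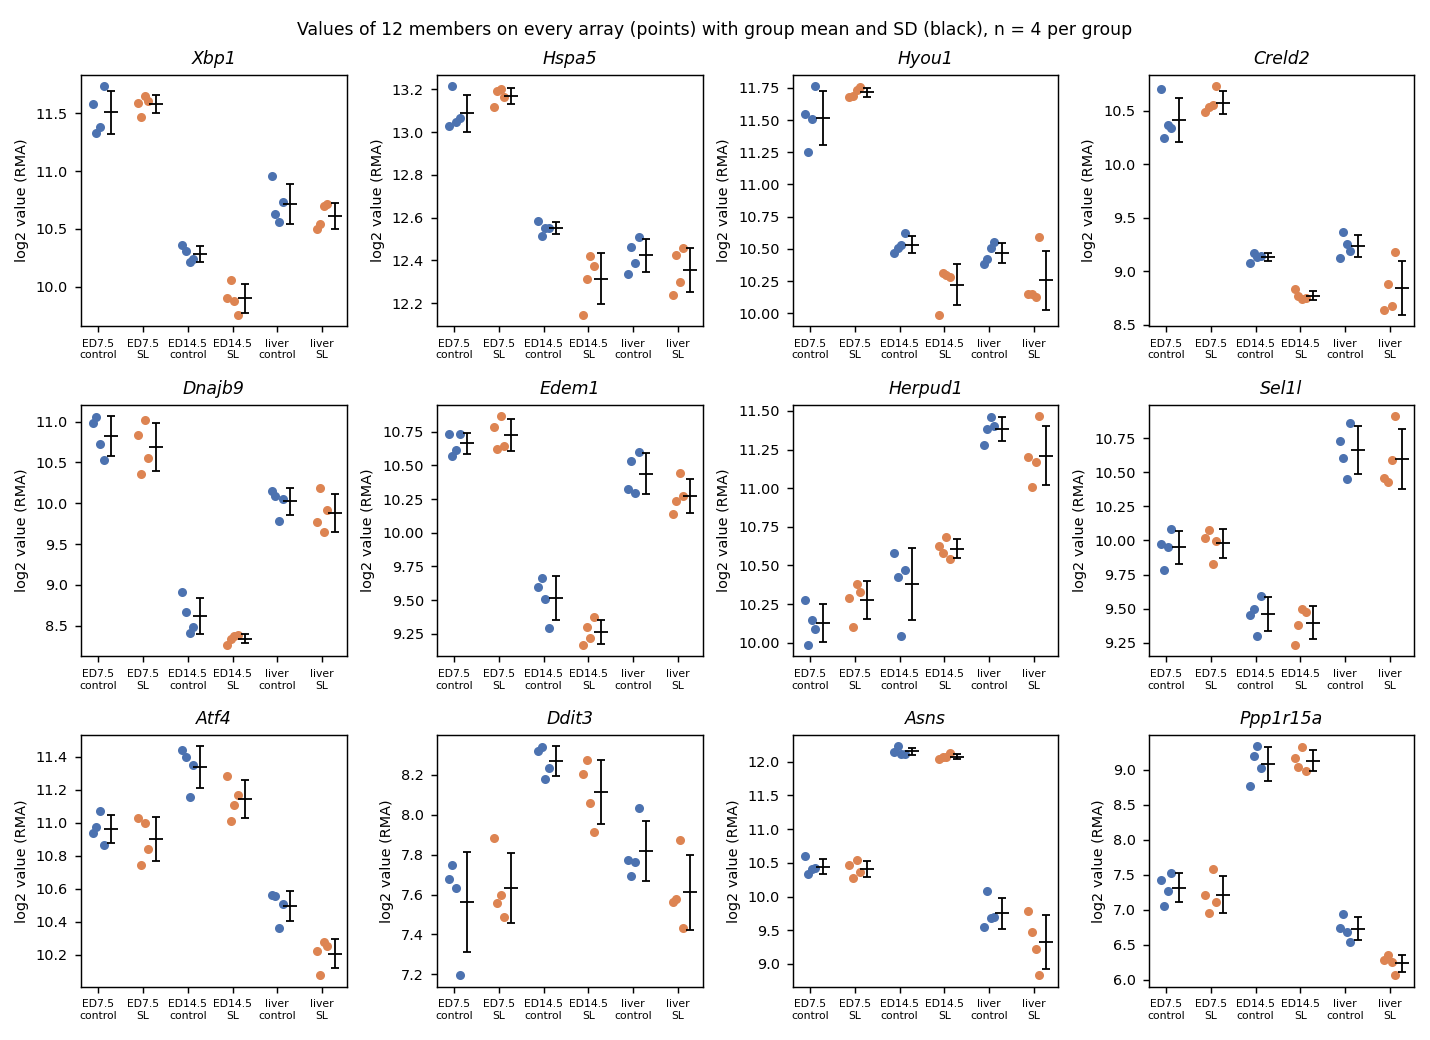
Log2 values of 12 members on every array, by group along the horizontal axis; each panel has its own vertical scale, points are arrays (blue control, orange SL), and black marks are the group mean and SD of 4 arrays. Xbp1, Hspa5, Hyou1, Creld2 and Dnajb9 are highest at ED7.5, and Asns and Ppp1r15a are highest at ED14.5. Within ED14.5 the SL points of Xbp1, Hspa5, Hyou1, Creld2 and Dnajb9 lie below the control points, and within the liver those of Atf4 and Ppp1r15a do.

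The question of the study was whether grandoffspring of SL males differ from those of control males at each age. At ED7.5 no member passed the limma test in SL against control, where 0.00513% of all genes passed. Differences were above 0 for 18 members and below 0 for 12, beside 50.5% and 49.5% of all genes, with a median of 0.025 against 0.0020 for all genes. At an unadjusted p under 0.05 there was 1 higher member and 0 lower, beside 2.80% and 2.68% of all genes. That member was Syvn1, which encodes the HRD1 ligase, with 9.85, 10.12, 10.01 and 9.59 in controls and 10.20, 10.17, 10.29 and 10.39 in SL arrays. All SL values were above all control values, as for 1.56% of genes (0.37, SE 0.130, adjusted p 0.818). Ern1 had the largest difference below 0 (-0.48, SE 0.236, adjusted p 0.917), with 9.54 to 10.35 in controls and 9.24 to 9.99 in SL arrays, which overlapped. The other sensors lay slightly above 0, Eif2ak3 at 0.082 and Atf6 at 0.095, as did Xbp1 at 0.071 and Hspa5 at 0.080 (adjusted p 0.970 to 0.990). Of the PERK and ATF4 genes Atf4 differed by -0.058, Asns by -0.031, Chac1 by -0.016, Trib3 by 0.015 and Ddit3 by 0.068. The median was 0.022 for the chaperones and -0.024 for the PERK and ATF4 genes.

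At ED14.5 chaperone values were lower in SL than in control arrays without any member passing the threshold. Of 30 members 0 passed, where 0.0513% of all genes did. Differences were below 0 for 22 of 30 members, with a median of -0.13, beside 50% of all genes and a median of 7.77e-05. The SL and control arrays did not overlap for 8 members that were lower in SL (Xbp1, Hspa5, Hsp90b1, Hyou1, Pdia3, Dnajb9, Creld2, Derl1), against 4.27% of all genes, and for 1 that was higher (Atf6), against 3.71%. At an unadjusted p under 0.05, 6 members were lower and 0 higher, against 5.81% and 5.59% of all genes. The chaperones had a median of -0.17 with 10 of 13 below 0 and 6 without overlap.

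Xbp1 had the largest difference among members above background. Its log2 values were 10.36, 10.31, 10.22 and 10.24 on control arrays and 9.90, 10.06, 9.87 and 9.76 on SL arrays. Every SL array was below every control array, by 0.38 on average (difference -0.38, SE 0.0969, adjusted p 0.190). Creld2 read 9.08, 9.17, 9.14 and 9.15 in controls and 8.84, 8.77, 8.74 and 8.75 in SL, with little spread on either side (-0.36, SE 0.0819, adjusted p 0.160). When the prior variance of limma was made robust and allowed to follow intensity, these 2 members and 0 other members were called. Their adjusted p was then 0.0196 for Xbp1 and 0.0366 for Creld2. The share of all genes called under that prior was not taken, so these calls have no background to be read against. Leaving out single arrays gave adjusted p up to 0.361 and 0.314 with the standard prior. Hyou1, a large chaperone that acts as exchange factor of BiP, read 10.47, 10.51, 10.53 and 10.62 against 9.99, 10.32, 10.30 and 10.29 (-0.31, SE 0.104, adjusted p 0.304). SL replicate 1 was the lowest by a wide margin, and the difference without it was -0.23.

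Hspa5 read 12.58, 12.51, 12.55 and 12.55 in controls and 12.15, 12.31, 12.42 and 12.37 in SL (-0.24, SE 0.0929, adjusted p 0.377). The control arrays lay within a narrow band and all SL arrays lay under it. Dnajb9 ran from 8.42 to 8.91 in controls and from 8.27 to 8.39 in SL (-0.28, adjusted p 0.432), and Hsp90b1, the chaperone GRP94, from 11.86 to 12.01 and from 11.64 to 11.79 (-0.19, adjusted p 0.447). Pdia3, a disulfide isomerase of glycoproteins, and Derl1, a channel component, differed by less (-0.12 and -0.14, adjusted p 0.615 and 0.548). Not all folding genes lay lower: Canx (0.036), P4hb (0.062) and Dnajb11 (0.077) were above 0. Atf6 read 9.35, 9.43, 9.34 and 9.44 in controls and 9.47, 9.52, 9.71 and 9.49 in SL (0.16, SE 0.0926, adjusted p 0.553), and Herpud1 also lay above 0 (0.23, SE 0.125, adjusted p 0.526). Of the other sensors Ern1 differed by 0.076 (adjusted p 0.878) and Eif2ak3 by -0.10 (adjusted p 0.841), both with overlap.

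The PERK and ATF4 genes at ED14.5 had the same median as the chaperones, -0.17, with 5 of 6 below 0, but all 6 overlapped between the groups. Atf4 read 11.44, 11.40, 11.16 and 11.35 in controls and 11.29, 11.01, 11.11 and 11.17 in SL (-0.19, SE 0.104, adjusted p 0.516). Asns, far above background, differed by -0.078 with a 95% interval from -0.26 to 0.11, and Ppp1r15a by 0.042 with an interval from -0.27 to 0.36. Trib3, near or below background, differed by -0.23 (adjusted p 0.653). The largest difference, that of Chac1 (-0.42, SE 0.364), was between arrays of which 7 were below background. Ddit3 had 2 probe sets that did not share a sign here, -0.15 for the brighter one and 0.012 for the other.

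Markers of other cells were read beside these values at ED14.5. Erythroid markers were below 0 for 8 of 10 (median -0.13, 0 called), and their mean per array ran from 11.85 to 11.94 in controls and from 11.68 to 11.85 in SL. Macrophage markers were below 0 for 7 of 9 (median -0.20), with means from 7.33 to 7.72 and from 7.31 to 7.48. Hepatocyte markers were below 0 for 5 of 12 (median 0.017). Of the 9 markers of plasma cells and B cells, which are rich in this machinery, 8 were above background on no ED14.5 control array. The part of erythroid and macrophage content in the members' differences was not tested. Without ED14.5 control replicate 1, the array with the highest background of its age, the count of members called was again 0.

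**Figure D3:**
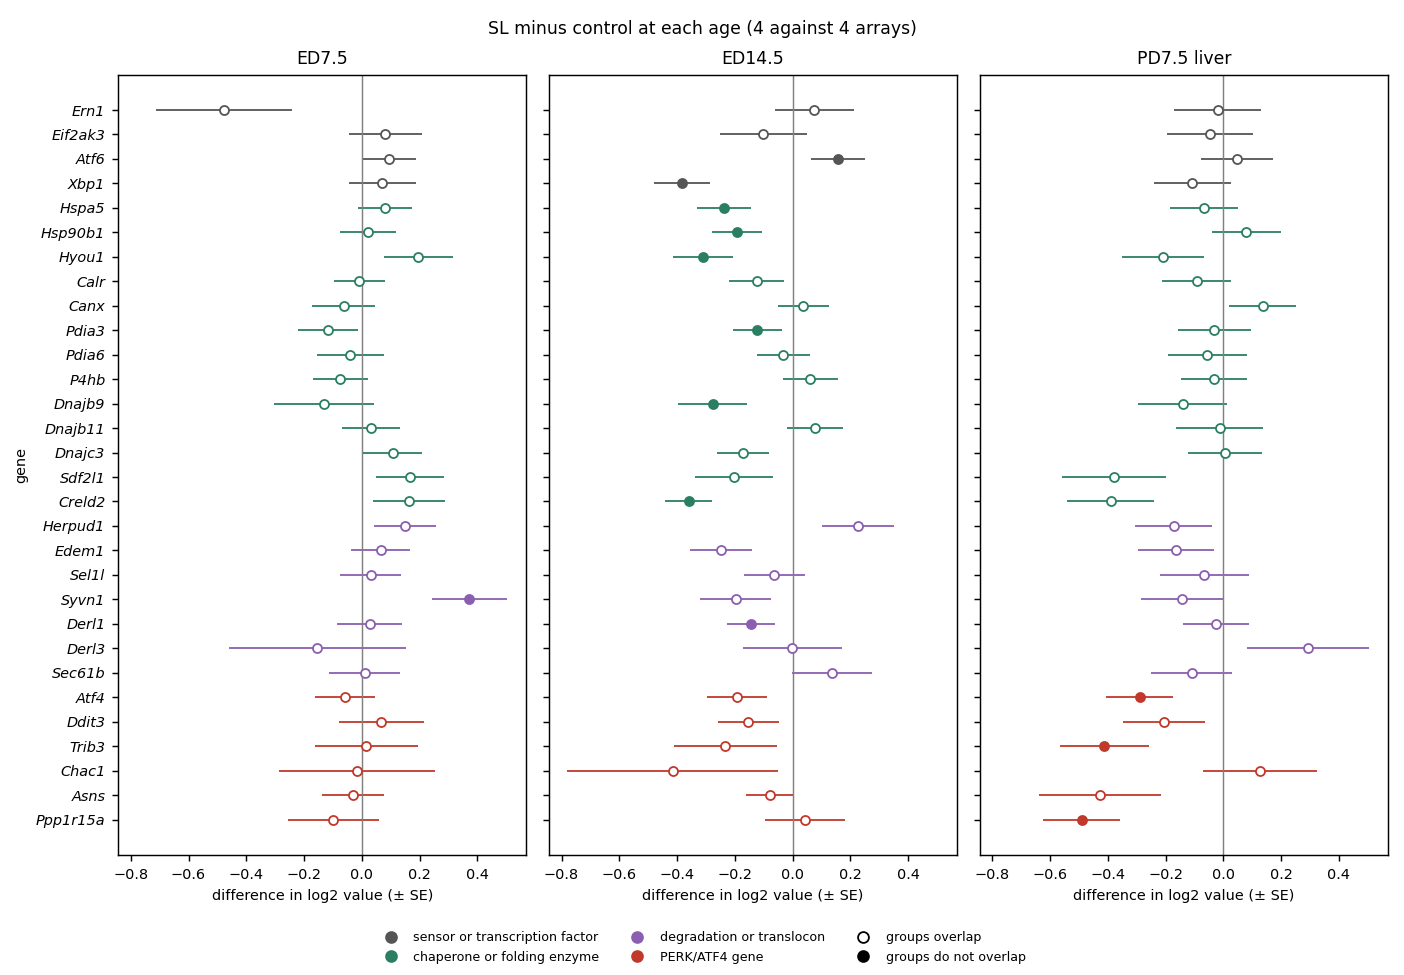
Differences in log2 value, SL minus control, for the 30 members (rows, coloured by role) in 3 panels (ED7.5, ED14.5, PD7.5 liver) on a common horizontal axis. Points are limma estimates from 4 against 4 arrays, bars are standard errors, and filled points mark groups that do not overlap. At ED7.5 the points scatter around 0, at ED14.5 the 8 filled points on the lower side are Xbp1, 6 chaperones and Derl1, and in the liver the 3 filled points are Atf4, Trib3 and Ppp1r15a.

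In the postnatal liver the PERK and ATF4 genes had the lowest median of the groups of members, without any of them passing the threshold. No member passed the test, and 0% of all genes did. Differences were below 0 for 24 of 30 members (median -0.080), beside 49.3% of all genes and a median of 0.0034. The PERK and ATF4 genes had a median of -0.35 with 5 of 6 below 0, and for 3 of the 6 the SL arrays lay wholly below the control arrays, against 2.30% of all genes. The chaperones had a median of -0.056 with 10 of 13 below 0, and for 0 of 13 did the groups separate. Of the degradation and translocon genes 6 of 7 were below 0 (median -0.11). At an unadjusted p under 0.05, 4 members were lower and 0 higher, against 3.62% and 4.29% of all genes.

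Ppp1r15a had the smallest p. It read 6.75, 6.94, 6.69 and 6.54 on control arrays and 6.28, 6.35, 6.25 and 6.07 on SL arrays, without overlap, a 1.40-fold lower mean (-0.49, SE 0.134, adjusted p 0.516). The background of these SL arrays was 5.89, 6.19, 5.95 and 6.04, so Ppp1r15a lay little above it, least on SL replicate 4. Atf4 read 10.56, 10.56, 10.36 and 10.51 against 10.22, 10.08, 10.28 and 10.25 (-0.29, SE 0.117, adjusted p 0.623). Its groups did not overlap either, with SL replicate 2 the lowest. Asns read 9.55, 10.09, 9.69 and 9.69 in controls and 9.78, 9.47, 9.22 and 8.83 in SL, where SL replicate 1 lay within the control range (-0.43, SE 0.212, adjusted p 0.661). Trib3 separated the groups as well (-0.41, adjusted p 0.605), but was below background on all 8 arrays. Ddit3 differed by -0.21 in the brighter and -0.22 in the other probe set (adjusted p 0.752 for the first).

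Of the chaperones, Creld2 (-0.39, SE 0.151, adjusted p 0.619) and Sdf2l1 (-0.38, SE 0.180, adjusted p 0.652) were the farthest from 0 in the liver. Creld2 read 9.13, 9.37, 9.26 and 9.19 in controls and 8.64, 8.89, 8.67 and 9.18 in SL. SL replicate 4 lay within the control range and the other 3 below it. Xbp1 differed by -0.11 (95% interval -0.41 to 0.19) and Hspa5 by -0.068 (-0.33 to 0.20), so that the ED14.5 differences of -0.38 and -0.24 lie inside these intervals. The sensors were close to 0: Ern1 at -0.020, Eif2ak3 at -0.046 and Atf6 at 0.046 (adjusted p 0.952 to 0.985). Chac1, below background on all 8 arrays, differed by 0.13 (adjusted p 0.906).

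Erythroid markers moved with the liver values: 10 of 10 were below 0 (median -0.60, 0 called), and their mean per array ran from 8.98 to 9.86 in controls and from 7.68 to 9.43 in SL. By array, SL replicate 4, with the lowest erythroid mean, had the lowest Asns and Ppp1r15a, and Atf4 was lowest in SL replicate 2. SL replicate 1 had an erythroid mean of 9.43, above 3 of the 4 control arrays. Its Asns lay within the control range, and its Ppp1r15a (6.28) and Atf4 (10.22) lay below all controls. These are readings of single arrays. Macrophage markers were below 0 for 8 of 9, with means from 9.14 to 9.22 in controls and from 8.82 to 9.11 in SL, and neutrophil markers were above 0 for 8 of 8. An array quality measure moved with the groups too: the chance that an exon control probe outshines an intron control probe was 0.897 to 0.904 on SL arrays and 0.906 to 0.920 on control arrays of the liver, without overlap. The part of these cells and of array quality in the result was not tested. Leaving out single arrays gave a median of the PERK and ATF4 genes between -0.40 and -0.28.

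The mean of each arm was taken on every array, which does not show how evenly its members shifted. Single chaperones differed by -0.36 to 0.077 at ED14.5, and single PERK and ATF4 genes by -0.49 to 0.13 in the liver. At ED14.5 the mean of the 13 chaperones lay between 10.58 and 10.62 on the control arrays and between 10.43 and 10.49 on the SL arrays. All 4 SL arrays were lower, by 0.11 to 0.17 from the control mean, while the mean of the PERK and ATF4 genes overlapped (8.44 to 8.81 and 8.37 to 8.55). In the liver the mean of the PERK and ATF4 genes lay between 7.49 and 7.66 on control arrays and between 7.16 and 7.42 on SL arrays. It includes Trib3 and Chac1, which were below background on every liver array. There the chaperone means overlapped, at 10.74 to 10.86 and 10.59 to 10.85. At ED7.5 both overlapped. These means describe genes that move together and are no test.

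**Figure D4:**
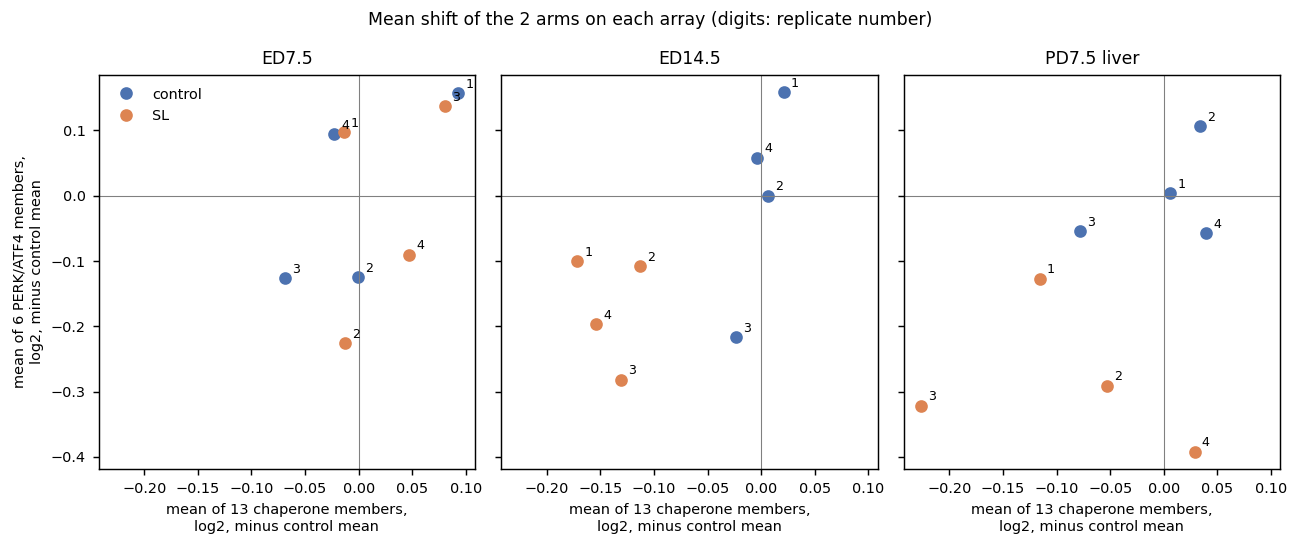
Mean log2 value of the 13 chaperones (horizontal) and of the 6 PERK and ATF4 genes (vertical) on each array, each minus the mean of the control arrays of that age; digits are replicate numbers, blue is control and orange SL. At ED14.5 the SL arrays are set apart along the horizontal axis and overlap along the vertical one, in the liver it is the reverse, and at ED7.5 they mix. The vertical means include Trib3 and Chac1, below background on every liver array.

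The difference between ages in the SL effect was itself tested and 0 members passed in any of the 3 interactions, where 0.0769%, 0.0256% and 0.00513% of all genes did. The smallest adjusted p was 0.393 for Creld2 at ED14.5 against ED7.5 (-0.52, SE 0.163), 0.351 for Ppp1r15a in the liver against ED14.5 (-0.53, SE 0.203) and 0.314 for Creld2 in the liver against ED7.5 (-0.55, SE 0.163). At an unadjusted p under 0.05 there were 7, 3 and 4 members, against 6.92%, 10.6% and 9.19% of all genes. The 7 of the first were Xbp1, Hspa5, Hyou1, Dnajc3, Creld2, Edem1 and Syvn1, all with an SL effect more negative at ED14.5. Of the 30 members 18 (60%) were below 0 both at ED14.5 and in the liver, against 25% of all genes. Singly, 22 of 30 were below 0 at ED14.5 and 24 of 30 in the liver. An overlap of about this size follows from these counts alone, so it does not show that the same members recur. By role these were 8 of 13 chaperones, 4 of 7 degradation and translocon genes, 4 of 6 PERK and ATF4 genes and 2 of 4 sensors and transcription factors.

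Members with and without an ER stress response element were set side by side among the chaperone, degradation, sensor and transcription factor genes that had a promoter window and a probe set. At ED14.5 the 9 with the element, which include Hspa5, Hsp90b1 and Creld2 shown above, had a median SL difference of -0.17 with 8 below 0 and 3 without overlap. The 12 without it had a median of -0.082 with 7 below 0 and 3 without overlap, Xbp1 among them. Of all genes 50% were below 0 and 4.27% lower without overlap. The 12 also hold the sensors Ern1 and Eif2ak3, and Herpud1 and Dnajb11, whose windows hold the related element. In the liver the medians were -0.056 and -0.086, with 5 of 9 and 12 of 12 below 0, against 49.3% of all genes. There the set without the element was thus below 0 more often, the reverse of ED14.5. From ED7.5 to ED14.5 in controls they were -0.92 and -0.81, with 8 of 9 and 11 of 12 lower, against 26.3% of all genes. From ED14.5 to the liver 1 of 9 with the element and 8 of 12 without it were higher, against 20.5% of all genes. No difference between the sets was tested. Herpud1, whose window holds the related element with 1 base between its parts and the ATF4 composite site, was not among the members that fell with the chaperones (0.26 from ED7.5 to ED14.5, adjusted p 0.145). Dnajb11, with the same related element, fell (-0.78, adjusted p 0.000132), as did Chac1, with the same ATF4 site (-1.13, adjusted p 0.0256). Canx, with the ER stress response element, did not pass (-0.20, adjusted p 0.161).

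Other genes of the pathway were taken from 7 lists, of which 122 of 129 genes were measured. In SL against control 0 of the 122 passed at any age. At ED14.5 54 were above and 68 below 0, and in the liver 37 above and 85 below. At ED14.5 the lists below 0 most often were transfer and trimming of N-glycans (13 of 15, median -0.081) and COPII export (13 of 16, median -0.11), which carries folded proteins to the Golgi. The list of ATF4 targets was mixed at ED14.5 (11 of 26 below 0, median 0.023). In the liver 20 of its 26 genes were below 0 (median -0.22), against 49.3% of all genes, and 4 were lower without overlap, against 2.30% of all genes. Of the COPII genes 14 of 16 were below 0 there (median -0.10).

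At an unadjusted p under 0.05, 7 of the 122 genes were higher and 8 lower at ED14.5, close to the 5.59% and 5.81% of all genes. The genes named next had the smallest p of their lists, and none passed the threshold. Ddit4, a stress-induced inhibitor of mTORC1, was 0.87 higher at ED14.5 (SE 0.134, adjusted p 0.0656), without overlap, and -0.87 in the liver (SE 0.252, adjusted p 0.523), with overlap. Mthfd2, a mitochondrial folate enzyme and ATF4 target, differed by -0.43 at ED14.5 (adjusted p 0.140), without overlap. Nfya, a subunit of the NF-Y factor that binds the CCAAT letters of the ER stress response element, differed by -0.55 there (SE 0.129, adjusted p 0.171) and by -0.42 in the liver (adjusted p 0.658). Creb3l2, a membrane-bound relative of ATF6, differed by -0.50 at ED14.5 (adjusted p 0.251). Above 0 at that age were also Sec11c, a catalytic subunit of the signal peptidase (0.33, adjusted p 0.299), Erlec1, a lectin of ER degradation (0.32, adjusted p 0.394), and Sar1b, the GTPase that starts the COPII coat (0.28, adjusted p 0.363). Slc7a1, a carrier of cationic amino acids, differed by -0.85 in the liver (adjusted p 0.569), where it was above background on 2 of 4 SL arrays.

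Between ages the same lists changed widely in the control arrays. From ED7.5 to ED14.5 77 of the 122 genes were lower and 18 higher, against 26.3% and 25.6% of all genes, shares that apply to each list here. Translocon, signal peptidase and TRAP genes were lower for 16 of 19 and higher for 0, and ER degradation genes lower for 11 of 16 and higher for 0. The ATF4 targets were split, 12 of 26 higher and 10 lower, with Vldlr (-3.85, adjusted p 3.87e-09) and Wars (-2.36, adjusted p 4.55e-08) the smallest p among them. From ED14.5 to the liver 50 were higher and 38 lower, against 20.5% and 24.6% of all genes. The ATF4 targets were then lower for 15 of 26 and higher for 7, led by Slc7a1 (-2.74, adjusted p 5.43e-08) and Aldh18a1 (-2.60, adjusted p 4.17e-07), an enzyme of proline synthesis. COPII export was higher for 10 of 16 and lower for 2. Ero1b, an oxidase that drives disulfide formation, was 2.12 higher (adjusted p 5.22e-06) and Creb3l3, a liver-enriched factor of the ATF6 kind, 2.15 higher (adjusted p 2.60e-07).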

How the data were processed

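The authors deposited log2 values, 1 per probe set and array, made by RMA in the oligo package per the submitters' processing notes. The sources used here give no version of it. That the unit is log2 was read from RMA's usual output and the range of the values. RMA equalizes the distributions of arrays, so a change shared by most genes would not be seen. Where a gene had several probe sets the brightest was used (1 member, Ddit3). Each comparison of 4 with 4 arrays was fitted with limma 3.58.1 under R 4.3.3 with data.table at version 1.17.8 over 19505 genes, with two-sided p-values adjusted by Benjamini-Hochberg and a threshold of 0.05. Interactions came from a fit of all 24 arrays. For a group below background on every array the fold is given as at least the stated size.

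Precision is limited by the number of arrays. The median standard error of the members was 0.114, 0.104 and 0.139 in log2 for SL against control at ED7.5, at ED14.5 and in the liver. On simulated data with 200 genes changed by 1 or 2 in log2, the fit recovered 71%, 71% and 63% of changes of 1 in these comparisons. Of its calls there 19 of 185, 16 of 185 and 12 of 160 were false. The data themselves gave 1, 10 and 0 called genes, and with so few changed genes recovery can be lower than in the simulation. The members and lists were chosen with earlier results of these data known, so no list was tested as a set. In each comparison the rule gave in full Xbp1, Hspa5, the 3 sensors and 5 PERK and ATF4 genes whatever their values, members past the threshold (between ages the 8 largest per direction) and members whose groups did not overlap. From each pathway list it named the 2 genes with the smallest p in each SL comparison, of which a selection is given. Naming pathway genes between ages, and other members, was decided after their values were seen.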

Additional observations from a re-analysis of the deposited data

Results flagged for a closer look

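For each of the 30 members and the means of both arms, the highest and lowest array of every group of 4 was compared with its neighbour by Dixon's criterion at 95%. Of 192 such sets of 4 values 15 held an array set apart, all of them of single members, and chance gives about 1 in 20. SL replicate 1 at ED14.5 was set apart for 3 members, low for Hyou1 (9.99) and Calr (12.26) and high for P4hb (11.39). At ED14.5 control replicate 1 was high for Hsp90b1 (12.01) and low for Derl3 (5.19), and control replicate 2 was high for Derl1 (10.35). At ED7.5 control replicate 1 was high for Atf6 (9.93), control replicate 3 low for P4hb (11.81), SL replicate 1 low for Pdia6 (12.32) and SL replicate 2 low for Chac1 (6.02). In the liver control replicate 4 was high for Ern1 (8.93) and low for Chac1 (4.82), control replicate 1 high for Sdf2l1 (8.55), SL replicate 4 high for Hyou1 (10.59) and SL replicate 3 low for Chac1 (4.51). Derl3 and Chac1 lie at or below background in several of these groups.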

How the results depend on the processing

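In SL against control the count of called members was 0 at ED7.5 and in the liver under every alternative run, and at ED14.5 under all but the robust, intensity-dependent prior, which called 2. Between ages it ran from 25 to 28 for ED14.5 against ED7.5 and from 13 to 17 for the liver against ED14.5 over the alternatives that kept all arrays. The labels do not say whether the replicate numbers pair the samples. Deviations of same-numbered arrays were little correlated (-0.17 to 0.12), which cannot settle it. With the replicate block 0 members were called in each SL comparison. It called 26 between the embryonic ages and 13 between ED14.5 and the liver, where Ern1 lost its call (adjusted p 0.0848).

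Medians of lists moved as follows; the cause was not tested beyond the change in members or scaling named. At ED14.5 SL against control the chaperone median was -0.12 with the degradation genes, Xbp1, Atf6 and Ern1 added, and -0.20 to -0.15 over left-out arrays; in the liver that of all members was -0.12 to -0.063. For ED14.5 against ED7.5 the chaperone median was -0.86 with quantile normalization and -0.63 with centred arrays (-0.86 to -0.79 over left-out arrays), and centring gave 0.72 for the PERK and ATF4 genes and -0.61 for all members; adding Eif2ak3 to the former gave 0.37. For the liver against ED14.5 centring gave 0.032 for the chaperones and 0.076 for all members, the wider chaperone arm 0.21, the PERK and ATF4 genes with Eif2ak3 -0.53, and members above background on every array 0.19; over left-out arrays the chaperone median ran from 0.077 to 0.14 and that of the PERK and ATF4 genes from -0.89 to -0.62, the farthest without ED14.5 control replicate 3.

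Signs turned for members near 0. With array weights these were Chac1 at ED7.5 (0.0041) and Trib3 in the liver against ED14.5 (0.0088), and with quantile normalization and centring Ern1 in the liver (0.0100 and 0.0059). When 1 array was left out, the ranges crossed 0 at ED7.5 for Asns (-0.076 to 0.024), Chac1 (-0.17 to 0.20), Trib3 (-0.11 to 0.15) and Ddit3 (-0.055 to 0.13), at ED14.5 for Ern1 (-0.0047 to 0.16), in the liver for Ern1 (-0.098 to 0.090), Eif2ak3 (-0.14 to 0.0066) and Atf6 (-0.017 to 0.083), and for Trib3 in the liver against ED14.5 (-0.12 to 0.11). Ern1 in the liver against ED14.5 also lost its call in a fit of all 24 arrays (adjusted p 0.0999) and with centring (0.0813), and Chac1 between the embryonic ages with quantile normalization (0.0521). The SL arrays in place of the controls and the omission of the arrays with the highest background were added after the data were seen. With 4 arrays a group, differences of 1 in log2 or less, and some larger ones, can go uncalled.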
